A study of Mus musculus with 11 samples.

Results

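En1 and En2 are the mouse Engrailed genes, which encode homeodomain transcription factors. The open chromatin around them was described from ATAC-seq peak lists, by taking every row that overlapped the gene body extended by 100 kb on each side on the mm9 genome. This gave 29 rows for En1 and 32 rows for En2, together 61 of the 131942 rows that each list holds, for 2 of 22367 protein-coding genes. Engrailed proteins are made in the midbrain and anterior hindbrain, around the isthmic organiser that patterns this stretch of the neural tube. They bind DNA through the homeodomain, often beside Pbx proteins, and repress transcription with co-repressors of the Groucho (Tle) family. Midbrain DA neurons express both genes and depend on them for survival, and 5-HT neurons of the most anterior rhombomere also arise from Engrailed-expressing tissue.

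The study sorted DA neurons and 5-HT neurons from mouse embryos at E14.5 and mapped their accessible chromatin. The DA libraries (n = 3) came from ventral mesencephalons of TH-GFP embryos, a line kept on C57BL/6J in which a Th promoter drives GFP. The 5-HT libraries (n = 2) came from rhombomeres 1 to 3 of Mash1-CRE x ROSA YFP embryos, in which cells with a history of Mash1-driven Cre carry YFP. Mash1 is active in progenitors of several neuron types, so YFP is not limited by the allele to 5-HT neurons. The study checked the sorted YFP-positive cells for Tph2 and reports them as enriched in its protein and mRNA. By RNA-seq it also reports genes of DA and GABA neurons as expressed in these cells. For the GFP-positive cells the study reports Th protein in most of them, and proposes a slight contamination by GABA neurons. In both lines the sires were transgenic and the dams Swiss wild-type, embryos were pooled, and each library was an independent sort. The reporter line, the dissected region and the number of sorted cells, lower for 5-HT neurons by the study's methods, all differ between the groups and cannot be told apart from the cell type.

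In ATAC-seq a transposase cuts open chromatin, and clusters of cuts are called as peaks. Each row of the lists is a genomic interval with 1 deposited score per library, which is 0 where that library has no peak. What the score measures is not stated, so it is given as deposited and also as a percentile among the rows with a peak of the same library. A peak was listed in 52861, 93055 and 94351 rows in DA replicates 1, 2 and 3, which is 40.1, 70.5 and 71.5% of all rows. The 5-HT replicates 1 and 2 had a peak in 38772 and 22879 rows, 29.4 and 17.3%. Every DA library thus had more peaks than either 5-HT library, and counts around a gene can move with this. Sequencing depth is unknown from peak lists, and the number of peaks is the gauge of yield used here. Results are therefore also given at an equal peak number, with the 22879 highest-scoring rows kept in every library.

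The promoters of cell type markers were looked up first as a check of the labels. A promoter was taken from 1 kb upstream to 100 bp downstream of any annotated TSS of the gene, with the highest-scoring row where several overlapped it. Th, which encodes the rate-limiting enzyme of dopamine synthesis, had scores of 9.91, 10.6 and 8.45 in the DA libraries and was listed at 0 for both 5-HT libraries. The LIM homeobox gene Lmx1a was likewise listed at 0 in both 5-HT libraries, with 5.00, 5.62 and 4.09 in the DA libraries. All 7 DA markers (Th, Slc6a3, Ddc, Slc18a2, Lmx1a, Pitx3 and Nr4a2) had a promoter peak in every DA library, and 4 of 7 had one in each 5-HT library. Of all 22367 protein-coding promoters, the DA libraries had a peak at 13372, 14238 and 13863, and the 5-HT libraries at 13022 and 11088. The summed score of the 7 DA markers was 52.3, 54.9 and 46.7 in the DA libraries and 20.6 and 12.8 in the 5-HT libraries, with Pitx3 the highest in each DA library and Nr4a2 in each 5-HT library.

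The 5-HT markers differed in direction from gene to gene. Of Tph2, Fev, Slc6a4, Gata2 and Gata3, the number with a promoter peak was 3, 4 and 3 of 5 in the DA libraries and 4 and 2 of 5 in the 5-HT libraries. Their summed score was 21.7, 21.8 and 19.5 in the DA libraries and 20.3 and 11.1 in the 5-HT libraries, with Tph2 the highest in all but 5-HT replicate 2. Tph2 itself had 9.91, 7.59 and 11.1 in the DA libraries, each above the 7.09 and 3.59 of the 5-HT libraries. Fev, a transcription factor of 5-HT neurons, had a peak in 5-HT replicate 1 alone, with a score of 3.88. The serotonin transporter gene Slc6a4 had scores of 4.80, 6.56 and 3.76 in the DA libraries and none in the 5-HT libraries. Gata3 was highest in 5-HT replicate 2, with 7.51 there and 5.17 in 5-HT replicate 1 against 6.98, 4.52 and 4.65 in the DA libraries. Gata2 was highest in 5-HT replicate 1 at 4.20, with 3.11 in DA replicate 2 and none in the other 3 libraries. A promoter peak is not a level of expression, so these values do not measure the share of 5-HT neurons in the sorts.

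Markers of other cells were also open at many promoters. The GABA neuron genes Gad1, Gad2 and Slc32a1 had a summed score of 14.9, 13.9 and 12.9 in the DA libraries and 13.3 and 6.60 in the 5-HT libraries, with Slc32a1 the highest in DA replicates 1 and 2 and Gad2 in the other 3 libraries. Of the glutamate neuron genes, Slc17a7 was at 0 in all 5 libraries, and Slc17a6 had 9.97, 12.9 and 12.8 in the DA libraries, 3.65 in 5-HT replicate 1 and none in 5-HT replicate 2. The GABA genes were thus open in every DA library, and Slc17a6 scored higher in each DA library than in 5-HT replicate 1. The noradrenergic gene Dbh was at 0 in all 5 libraries. The radial glia and astrocyte genes Gfap, Slc1a3 and Fabp7 summed to 18.7, 17.4 and 18.5 in the DA libraries and to 15.6 and 3.07 in the 5-HT libraries, with Gfap the highest in all but 5-HT replicate 2, where it was at 0. Of the vascular and microglial genes Cldn5, Pdgfrb and Aif1, the last was at 0 throughout, and Cldn5, the highest, had 4.86, 4.94 and 5.22 in the DA libraries, 4.62 in 5-HT replicate 1 and none in 5-HT replicate 2. The summed score of these 3 genes was 4.86, 9.14 and 8.34 in the DA libraries and 4.62 and 0 in the 5-HT libraries. The part of such cells in the results on En1 and En2 was not tested.

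Both Engrailed promoters were open in both cell types. A single row lay over each promoter and had a peak in all 5 libraries, as did 48.5% of all protein-coding promoters. The scores of both rows were higher in every DA library than in either 5-HT library. Their ranks among the peaks of a library were not separated in this way. In pools of sorted cells, fewer cells open at a row and weaker opening in each cell cannot be told apart.

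En1 lies on the plus strand at chr1:122498995-122505873 and has 2 exons. Its promoter row, chr1:122495583-122500501, is 4919 bp wide, reaches from upstream of the TSS across exon 1 and is centred 0.95 kb upstream of the TSS. This row scored 7.66, 8.20 and 7.03 in the DA libraries (replicates 1, 2 and 3) against 4.95 and 3.84 in the 5-HT libraries (replicates 1 and 2). As a percentile among the peaks of each library this was 79.0, 83.8 and 82.9 in the DA libraries and 61.5 and 55.6 in the 5-HT libraries. All DA values lay above both 5-HT values. The means were 81.9 ± 2.58 (SD, n = 3) and 58.5 ± 4.18 (SD, n = 2), a difference of 23.4 percentile points (two-sided exact permutation test, p = 0.2, Benjamini-Hochberg adjusted over 4 tests p = 0.2). With 3 libraries against 2, 0.2 is the smallest p this test can give. In order of score the En1 promoter ranked 11117, 15048 and 16153 in the DA libraries and 14933 and 10166 in the 5-HT libraries, so the groups overlapped. Its percentile among the 22879 highest-scoring rows, a setting chosen after the values were seen, was 51.4, 34.2 and 29.4 in the DA libraries and 34.7 and 55.6 in the 5-HT libraries, and the difference between the means turned to -6.80 (exact permutation test, p = 0.4).

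En2 lies on the plus strand at chr5:28492236-28500152 and also has 2 exons. Its promoter row, chr5:28491612-28493082, is 1471 bp wide, spans the TSS and ends within exon 1. The score was 9.29, 10.1 and 7.40 in the DA libraries and 5.01 and 4.10 in the 5-HT libraries, which corresponds to percentiles of 88.2, 90.5 and 84.8 against 62.8 and 63.5. The DA libraries again lay above both 5-HT libraries. The means were 87.8 ± 2.87 (SD, n = 3) and 63.1 ± 0.495 (SD, n = 2), and their difference was 24.7 percentile points (two-sided exact permutation test, p = 0.2, adjusted p = 0.2). The En2 promoter ranked 6263, 8804 and 14326 in the DA libraries and 14436 and 8358 in the 5-HT libraries. Among the 22879 highest-scoring rows its percentile was 72.6, 61.5 and 37.4 in the DA libraries and 36.9 and 63.5 in the 5-HT libraries, a difference of 6.99 with overlapping groups (exact permutation test, p = 0.8).

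Set among the promoters of all protein-coding genes, those of En1 and En2 stood near the middle. Of the promoters with a peak in the same library, 50.5, 59.6 and 59.4% scored above En1 in the DA libraries, and 66.5 and 65.1% did in the 5-HT libraries. For En2 these shares were 34.4, 44.2 and 55.7% in the DA libraries and 65.1 and 56.7% in the 5-HT libraries. En2 scored above En1 in each of the 5 libraries. The genes whose promoter percentiles came nearest to those of En1 over the 5 libraries were Ppp1r15a, a regulator of eIF2 alpha dephosphorylation, and Plekha4, both with a largest difference of 3.71 points and equal values in every library, followed by Asb4 at 4.00. For En2 they were Zfp259, Shfm1 and Tshr, the thyrotropin receptor gene, with largest differences of 3.30, 3.46 and 3.74. En1 and En2 differed from each other by at most 9.18 points.

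The windows of both genes, counted with promoter, gene body and flanks together, held more rows with a peak in the DA libraries than in the 5-HT libraries. For En1 this excess shrank, and for En2 it turned, once every library was given the same number of peaks. In the En1 window, 17, 23 and 27 of the 29 rows had a peak in DA replicates 1, 2 and 3, and 8 and 4 had one in 5-HT replicates 1 and 2. The groups did not overlap. The means were 22.3 ± 5.03 (SD, n = 3) and 6 ± 2.83 (SD, n = 2), a difference of 16.3 rows (two-sided exact permutation test, p = 0.2, adjusted p = 0.2). Relative to the share of all rows with a peak in the same library, the En1 share was 1.46, 1.12 and 1.30 times as large in the DA libraries and 0.939 and 0.795 times in the 5-HT libraries. At the equal peak number the counts were 8, 5 and 5 in the DA libraries and 5 and 4 in the 5-HT libraries, so that DA replicates 2 and 3 matched 5-HT replicate 1, and the difference was 1.5 rows (exact permutation test, p = 0.6).

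In the En2 window, the DA libraries had a peak in 13, 30 and 19 of the 32 rows, and the 5-HT libraries in 9 and 4. DA replicate 2 stood above the other two DA libraries, and the lowest DA library was still above the higher 5-HT library. The means were 20.7 ± 8.62 (SD, n = 3) and 6.5 ± 3.54 (SD, n = 2), a difference of 14.2 rows (two-sided exact permutation test, p = 0.2, adjusted p = 0.2). Relative to all rows of the same library, the En2 share was 1.01, 1.33 and 0.830 times as large in the DA libraries and 0.957 and 0.721 times in the 5-HT libraries, and here the groups overlapped. At the equal peak number the counts were 3, 3 and 4 in the DA libraries and 6 and 4 in the 5-HT libraries, a difference of -1.67 rows (exact permutation test, p = 0.4).

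**Figure D1:**
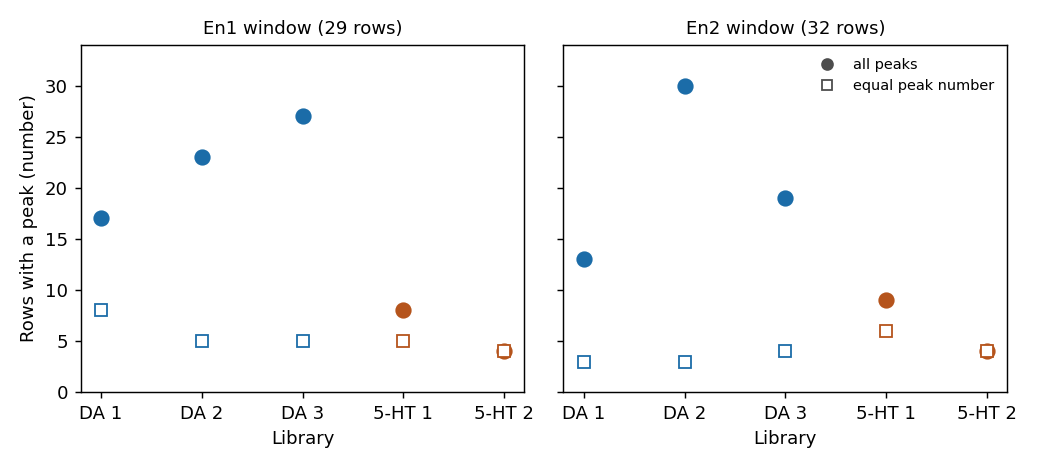
Number of rows with a peak (vertical axis) in the En1 window (left, 29 rows) and the En2 window (right, 32 rows) for each library (horizontal axis), DA in blue and 5-HT in orange. Filled circles count all deposited peaks, and open squares count peaks among the 22879 highest-scoring rows of each library. The circles of all DA libraries lie above those of both 5-HT libraries, and the squares lie between 3 and 8 rows in every library.

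Rows with a peak in all 3 DA libraries and in neither 5-HT library, called DA-only rows here, made up a larger share around En1 than in the lists as a whole. They numbered 10 of the 29 En1 rows (34.5%, 95% Wilson interval 19.9 to 52.7%) and 6 of the 32 En2 rows (18.8%, 8.89 to 35.3%), beside 13.4% of all rows. These intervals cover counting error only, and neighbouring rows are not independent. At the equal peak number 2 En1 rows and 1 En2 row remained in this class, 6.90 and 3.13% beside 2.14% of all rows. Without DA replicate 1, the En2 count was 12, but the share of all rows in that setting was not counted. Of all protein-coding genes, 0.814% had at least as many DA-only rows in a window of the same flanks as En1, and 4.99% had at least as many as En2, with a median of 1. Windows of neighbouring genes share rows, so these are descriptions of the lists.

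Rows of any class were also dense at these genes. The median protein-coding gene had 14 rows in such a window, and 7.25% of genes had at least as many as En1 and 5.07% at least as many as En2. Per 100 kb of window, En1 had 14.0 rows and En2 had 15.4, beside a median of 5.80. No En1 or En2 row was open in the 5-HT libraries together and in no DA library, a class that took 0.389% of all rows. At the equal peak number this class held 1 En1 row (3.45%) and 1 En2 row (3.13%), beside 1.79% of all rows. Both of them have a peak in all 5 libraries when every deposited peak is counted, and they are described below among the shared rows.

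Around En1 the peaks shared by both cell types lay at the promoter, upstream and far downstream. Peaks in all 5 libraries were found in 4 of the 29 rows, 13.8% beside 12.8% of all rows. Outside the promoter, 2 of these rows are described here, chr1:122483107-122483358 and chr1:122539644-122541720. The row 15.6 kb upstream of En1 had 8.31, 9.10 and 8.47 in the DA libraries and 4.84 and 4.76 in the 5-HT libraries, with all DA scores above both 5-HT scores. The row 33.8 kb downstream had 5.42, 4.87 and 5.41 in the DA libraries and 4.69 and 2.83 in the 5-HT libraries, and ranked among the 22879 highest in 5-HT replicate 1 and in no DA library. In 5-HT replicate 2, whose whole list has this length, its percentile was 0.435.

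The DA-only rows of En1 fell on both sides of the gene, 3 in the upstream flank and 7 in the downstream flank, with scores from 3.07 to 8.29. The nearest upstream row, chr1:122491212-122491671, ended 7.32 kb before the TSS and had 7.58, 8.01 and 6.98 in DA replicates 1, 2 and 3. These scores were close to those of the En1 promoter in the same libraries, 7.66, 8.20 and 7.03, and the row held its class at the equal peak number. The other two upstream rows, chr1:122442839-122443212 and chr1:122446607-122447068, lay over 50 kb away and had scores from 3.15 to 5.70. Downstream, chr1:122507017-122507797 began 1.14 kb past the end of En1 with 4.55, 3.32 and 3.71, and chr1:122512285-122512831 had 3.49, 3.98 and 4.05. In every DA library both scored below the En1 promoter.

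The remaining 5 DA-only rows of En1 lay at lnc-En1-1_3, a long non-coding RNA locus. The study places this locus downstream of En1, and it is listed here on the same strand as En1. In the study it belongs to the set of long non-coding RNAs found by RNA-seq of DA neurons, and is marked as DA-specific relative to the 5-HT set. The locus was thus not picked independently of the DA cells. Its TSS at position 122518213, 12.3 kb past the end of En1, was inside the DA-only row chr1:122517872-122518443. The score there was 5.68, 8.29 and 7.91 in DA replicates 1, 2 and 3, with none in the 5-HT libraries. This row also held its class at the equal peak number. Of the 11 rows over the locus, 5 were DA-only, 2 had a peak in all 5 libraries and 4 had a peak in 1 or 2 DA libraries and no 5-HT library (13.4, 12.8 and 54.2% of all rows). The other DA-only rows there were chr1:122518978-122519720 (4.05, 3.74 and 3.07), chr1:122520114-122520906 (4.93, 5.65 and 5.80), chr1:122523633-122524695 (4.34, 4.56 and 4.63) and chr1:122582441-122582998 (5.55, 6.52 and 4.03).

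The body of En1 carried 1 further row, chr1:122501328-122506933, which covers exon 2 and had 4.61, 4.51 and 4.20 in the DA libraries, 4.40 in 5-HT replicate 1 and none in 5-HT replicate 2. The 5-HT replicate 1 score was within the DA range. Of the other En1 rows, 2 upstream rows were open in every DA library and 5-HT replicate 1, which brings this class to 3 of 29 rows (10.3%, beside 8.49% of all rows for all DA libraries and 1 5-HT library). A further 11 rows (37.9%, beside 54.2% of all rows) had a peak in 1 or 2 DA libraries and no 5-HT library. Their scores ran from 3.17 to 4.29, and DA replicate 1, the DA library with the fewest peaks, had none of them. Marco, a macrophage scavenger receptor gene at the edge of the window, had no row at its promoter, as was so for 34.9% of protein-coding promoters.

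**Figure D2:**
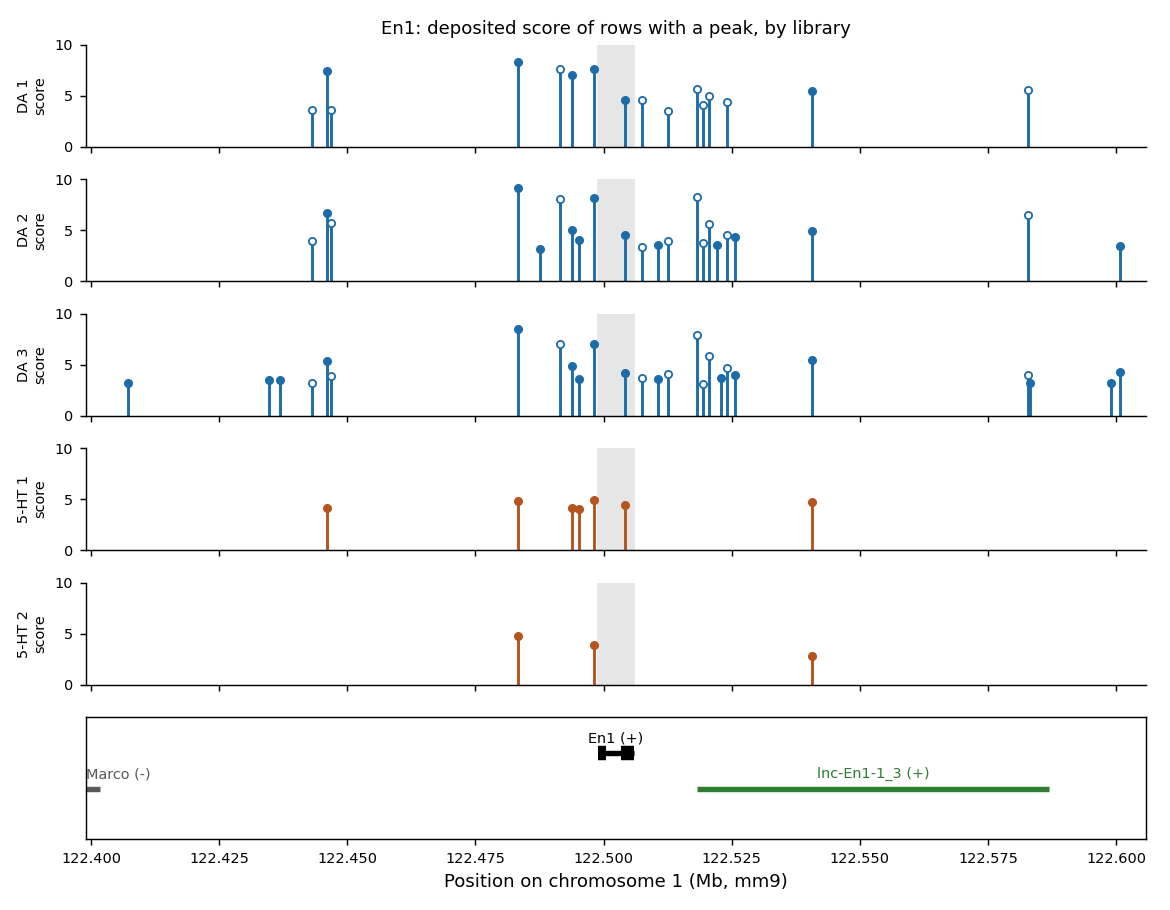
Deposited score (vertical axis, no unit stated) of the rows with a peak in the En1 window, 1 row left out, against the position of the row centre on chromosome 1 (horizontal axis, Mb, mm9), with 1 panel per library, DA in blue and 5-HT in orange. Open circles mark the 10 DA-only rows, the grey band is the En1 gene body, and the lowest panel shows En1 with its exons, lnc-En1-1_3 and Marco with their strands.

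Around En2 the strongest row belonged to a neighbouring gene. The highest-scoring flank row, chr5:28396757-28399081, covers the promoter of Insig1, which encodes a sterol-regulated protein of the endoplasmic reticulum, and that of the non-coding gene Gm16719. Its score was 10.1, 15.9 and 10.7 in the DA libraries and 7.10 and 6.05 in the 5-HT libraries, above the En2 promoter in each library. Peaks in all 5 libraries were found in 3 of the 32 En2 rows (9.38%), namely the Insig1 row, the En2 promoter and chr5:28500676-28502284. The last began 0.52 kb past the end of En2 and had 3.73, 5.06 and 3.95 in the DA libraries and 4.24 and 3.47 in the 5-HT libraries. The groups overlapped at this row, and it was among the 22879 highest in 5-HT replicate 1 and in no DA library.

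The 6 DA-only rows of En2 were split evenly, 3 upstream and 3 downstream, with scores from 3.44 to 6.86. The highest, chr5:28502652-28503454, began 2.50 kb past the end of En2 and had 5.61, 6.86 and 6.80 in DA replicates 1, 2 and 3. It was the row that held its class at the equal peak number. Upstream, chr5:28484514-28485265 ended 6.97 kb before the TSS and had 4.43, 4.67 and 3.92. The more distant upstream rows were chr5:28443995-28445956 (3.80, 4.56 and 4.09) and chr5:28420621-28420774 (5.50, 6.69 and 4.34). The other downstream rows, chr5:28534427-28535818 (4.74, 6.11 and 4.70) and chr5:28562625-28562826 (3.80, 5.12 and 3.44), lie within Cnpy1. DA replicate 2 had the highest score of the DA libraries at all 6 rows.

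None of the 6 rows in the body of En2 outside the promoter had a peak in DA replicate 1 (40.1% of all rows) or 5-HT replicate 2 (17.3%). DA replicate 2 had a peak in all 6 (70.5% of all rows), DA replicate 3 in 2 (71.5%) and 5-HT replicate 1 in 1 (29.4%). Their highest score was 4.26. In the whole En2 window, 16 of 32 rows (50%, beside 54.2% of all rows) had a peak in 1 or 2 DA libraries and no 5-HT library, and DA replicate 2 had 15 of them. A single En2 row, chosen for mention after its values were seen, had a peak in a 5-HT library and no DA library, chr5:28463143-28463287 with a score of 2.93 in 5-HT replicate 2 (3.13% of the En2 rows, beside 4.71% of all rows). Cnpy1, a canopy family gene studied for FGF signalling at the midbrain-hindbrain boundary, overlapped 7 rows, of which 2 were DA-only (13.4% of all rows). DA replicate 2 had a peak in all 7 rows (70.5% of all rows), 5-HT replicate 1 in 4 (29.4%) and 5-HT replicate 2 in 0 (17.3%). DA replicate 3 had a peak in as many of them as 5-HT replicate 1, and DA replicate 1 in fewer. The highest promoter score of Cnpy1 was 4.68, 6.09 and 4.24 in the DA libraries, 5.18 in 5-HT replicate 1 and 0 in 5-HT replicate 2.

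**Figure D3:**
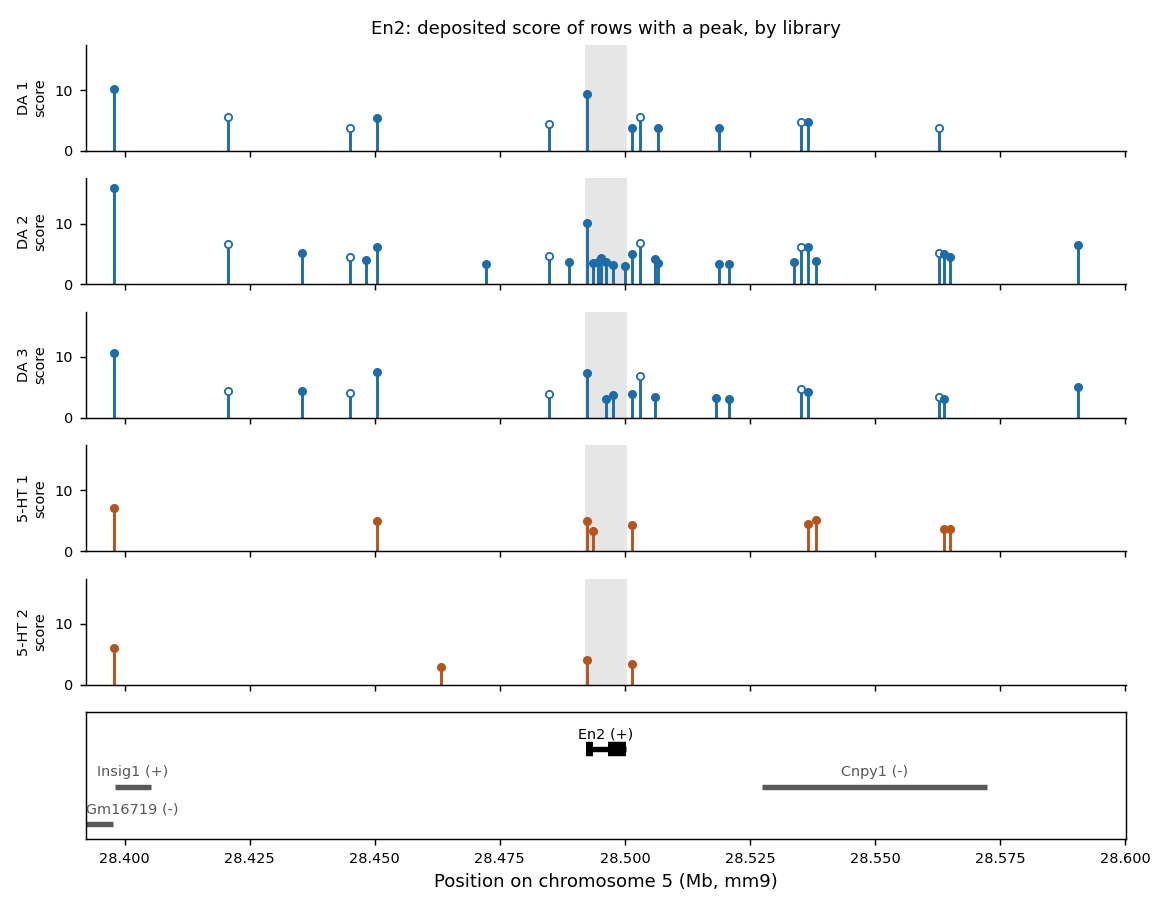
Deposited score (vertical axis, no unit stated) of every row with a peak in the En2 window against the position of the row centre on chromosome 5 (horizontal axis, Mb, mm9), with 1 panel per library, DA in blue and 5-HT in orange. Open circles mark the 6 DA-only rows, the grey band is the En2 gene body, and the lowest panel shows En2 with its exons, Insig1, Gm16719 and Cnpy1 with their strands. The highest stem in each panel is the row over the Insig1 promoter, and the stems within the grey band away from the promoter stand mostly in DA replicate 2.

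The En2 promoter row was richer in CpG than that of En1. It had a GC content of 66.2% and an observed over expected CpG ratio of 1.00, and the En1 promoter row had 55.4% and 0.655. The rows with a peak in all 5 libraries had medians of 56.5% and 0.610. The DA-only rows had a median GC content of 48.6% around En1 and 50.7% around En2, beside 47.7% for all DA-only rows.

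The 200 bp at the centre of each row were searched, on either strand, for letters that factors of this tissue bind. The homeodomain core TAATTA, the type of site that Engrailed itself binds, was found in 6 of the 29 En1 rows (20.7%) and in 1 of the 32 En2 rows (3.13%), beside 6.38% of all rows. TAATTG was found in 0 and 3 rows (7.78% of all rows), and the Otx-type TAATCC in 2 and 3 (7.11%). These counts are small, and their differences from the share of all rows were not tested. The FOX letters TGTTTAC were found in 1 En1 row and 0 En2 rows (3.83% of all rows). The SOX letters ACAAAG and ACAATG were found in 6 and 1 En1 rows and in 4 and 2 En2 rows (17.5 and 10.5% of all rows). For En1 and En2 the Meis and Pbx type TGACAG was found in 2 and 4 rows (16.9%), the NF-Y letters CCAAT in 7 and 8 (23.9%), the Sp and Klf letters GGGCGG in 2 and 7 (9.73%), and TATAAA in 2 and 0 (8.50%). TAATTA is its own reverse complement, and CCAAT followed by TA holds the reverse complement of TAATTG. A match describes letters only and is not a binding site.

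Sequences are given for the 250 bases before the En1 TSS and the central 200 bases of the En1 rows in which a DA-only peak lay at the TSS of lnc-En1-1_3 or in which TAATTA lay in a flank row with a peak in every DA library, all on the plus strand of mm9 with the searched letters in capitals. They are, in order, the promoter at chr1:122498745-122498994, the lnc-En1-1_3 TSS row at chr1:122518057-122518256, and the rows with TAATTA at chr1:122442925-122443124, chr1:122524064-122524263 and chr1:122540582-122540781. The promoter stretch holds the reverse complement of GGGCGG, which 39.6% of protein-coding promoters hold in the same 250 bases, that of TAATCC (6.46%) and, at 2 places, that of CCAAT (35.0%).
En1 promoter: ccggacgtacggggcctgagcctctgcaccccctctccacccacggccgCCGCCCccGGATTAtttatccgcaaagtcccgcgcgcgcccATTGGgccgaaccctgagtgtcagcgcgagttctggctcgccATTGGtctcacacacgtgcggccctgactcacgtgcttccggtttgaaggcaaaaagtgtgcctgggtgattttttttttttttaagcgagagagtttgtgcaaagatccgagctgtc
lnc-En1-1_3 TSS row: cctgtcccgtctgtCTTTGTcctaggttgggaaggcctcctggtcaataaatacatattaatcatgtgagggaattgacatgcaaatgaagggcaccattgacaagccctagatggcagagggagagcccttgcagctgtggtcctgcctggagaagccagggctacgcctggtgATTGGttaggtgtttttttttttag
En1 TAATTA row A: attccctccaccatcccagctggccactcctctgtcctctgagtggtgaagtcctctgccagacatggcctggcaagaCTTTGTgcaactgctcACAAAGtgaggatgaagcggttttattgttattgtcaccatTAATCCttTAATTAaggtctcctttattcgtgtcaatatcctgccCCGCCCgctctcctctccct
En1 TAATTA row B: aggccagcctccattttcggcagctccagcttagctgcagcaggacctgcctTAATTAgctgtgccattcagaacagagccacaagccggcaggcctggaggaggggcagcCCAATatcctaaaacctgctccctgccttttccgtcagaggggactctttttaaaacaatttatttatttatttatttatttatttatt
En1 TAATTA row C: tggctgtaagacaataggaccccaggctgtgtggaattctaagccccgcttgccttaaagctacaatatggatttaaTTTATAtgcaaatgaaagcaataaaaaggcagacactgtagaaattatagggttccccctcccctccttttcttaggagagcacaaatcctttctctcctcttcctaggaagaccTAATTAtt

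Rows A and B are DA-only and row C has a peak in all 5 libraries. The corresponding stretch of the highest DA-only row of En2, chr5:28502953-28503152 on the plus strand, is shown because it is the En2 row that held its class at the equal peak number. It carries an unbroken repeat of alternating g and t over 38 bases, and its capitals mark the reverse complement of TGACAG. How reads were placed in this repeat was not tested.
En2 highest DA-only row: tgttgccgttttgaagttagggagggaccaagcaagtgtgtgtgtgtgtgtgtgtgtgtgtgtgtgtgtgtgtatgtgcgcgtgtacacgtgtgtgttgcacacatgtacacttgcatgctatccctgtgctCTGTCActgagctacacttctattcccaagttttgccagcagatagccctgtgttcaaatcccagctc

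Other genes of the Engrailed network were also looked up. Of 22 network genes, 13 had a promoter peak in all 5 libraries (48.5% of all protein-coding promoters), 4 in all DA libraries and 1 5-HT library (8.45%), and 3 in no library (34.9%). None had a promoter peak in all 3 DA libraries and neither 5-HT library, a class of 1.99% of protein-coding promoters.

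Among the 8 genes that act upstream of or beside Engrailed at the isthmus, the signals Fgf8 and Wnt1 and the homeobox gene Gbx2 had no promoter row. Pax5, a paired-box activator of Engrailed, had 11.7, 13.2 and 13.0 in the DA libraries and 8.04 and 5.35 in the 5-HT libraries, above En1 and En2 in each library. Lmx1b, Otx2 and Pax8 were open at the promoter in every DA library and 5-HT replicate 1, and Pax2 in DA replicate 2 alone. For Otx2, a homeobox gene of the midbrain side, the scores were 5.24, 5.62 and 7.54 in the DA libraries, 4.53 in 5-HT replicate 1 and none in 5-HT replicate 2.

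Of the 9 cofactor genes, 7 had a promoter peak in all 5 libraries (48.5% of all protein-coding promoters). Tle4, a Groucho-type co-repressor, was the highest with 18.4, 21.2 and 17.8 in the DA libraries and 10.5 and 11.3 in the 5-HT libraries. All its DA scores were above both 5-HT scores, but its percentiles overlapped (99.4, 99.3 and 99.2 in the DA libraries, 98.3 and 99.5 in the 5-HT libraries). All of them lay near the top of the scale, where little difference can show. The 2 other cofactor genes were Pbx2, with no peak in 5-HT replicate 1, and Tle2, open in DA replicate 2 and the 5-HT libraries only.

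All 5 genes that Engrailed is known to act on (Map1b, Efna2, Efna5, Ngfr and Ndufs1) had a promoter peak in all 5 libraries. So did 48.5% of all protein-coding promoters, and a list of 5 genes is short. Map1b, which encodes a microtubule-associated protein and is listed as Mtap1b in the annotation, was the highest in each DA library, with 9.43, 13.8 and 10.6 in the DA libraries and 6.46 and 4.36 in the 5-HT libraries. Ndufs1, a subunit of mitochondrial complex I whose translation Engrailed raises, had 7.80, 9.49 and 7.65 in the DA libraries and 7.04 and 4.38 in the 5-HT libraries. Efna2, an ephrin ligand, had 3.80, 4.50 and 3.63 in the DA libraries and 3.37 and 3.01 in the 5-HT libraries, the lowest of the 5 genes in the DA libraries. Every DA score of these 3 genes was above both 5-HT scores, but the percentiles of Ndufs1 overlapped (80.0, 88.6 and 86.0 in the DA libraries, 87.3 and 70.1 in the 5-HT libraries).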

How the data were processed

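ATAC-seq lists of 3 DA and 2 5-HT libraries were analysed, and RNA-seq was not analysed here. Reads had been processed by the authors with Trimmomatic (trimming), Bowtie2 (alignment to mm9), Picard (removal of duplicates), MACS2 (peaks of each library) and BEDOPS (merging of near peaks), with no versions in the sources used here. The deposited lists give a score for the same 131942 rows in every library, and the other signal columns were not used. In 1 row a misspelled chromosome name was read as chromosome Y. Gene bodies, TSSs and sequence came from GENCODE vM1 and NCBIM37, the build of the lists. Members, lists and tests were chosen with earlier results of these data known. The named genes were En1, En2, protein-coding neighbours, lnc-En1-1_3, the network list (upstream, cofactor, acted on), the marker lists (DA, 5-HT, GABA, glutamate, noradrenergic, radial glia and astrocyte, vascular and microglial) and the 3 genes nearest each promoter by the largest difference in percentile. The named rows were promoter rows, rows with a peak in all 5 libraries, DA-only rows, rows present in the 5-HT libraries alone and the highest flank row, and 2 genes and 1 row of these are not reported here. Groups were compared by two-sided exact permutation tests with Benjamini-Hochberg adjustment over 4 tests. Alternatives were equal peak number, counts per 10000 peaks, flanks of 50 and 200 kb, rows less than 100 bp apart merged, a wider promoter (2 kb before to 500 bp after a TSS), the score itself, percentile among promoter rows, leaving out each library, a replicate block and, added later, percentile among equal numbers of rows. Functions, tested on simulated data, ran in Python 3.11.15 with SciPy 1.17.1, NumPy 2.4.6, matplotlib 3.10.9 and pandas 2.3.3.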

Additional observations from a re-analysis of the deposited data

How the results depend on the processing

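At the equal peak number the difference in rows with a peak turned to -1.67 for En2, and the DA-only count fell from 10 to 2 for En1 and from 6 to 1 for En2. The difference in promoter percentile turned to -6.80 for En1 when taken among equal numbers of rows, a setting chosen after seeing the data. In each of these settings fewer DA rows enter by construction. The other differences kept their direction (11 of 11 settings for En1 rows, 10 of 11 for En2 rows, 9 of 10 for the En1 promoter and 10 of 10 for the En2 promoter), and no setting passed 0.05, which 3 against 2 libraries cannot reach. Leaving out each library in turn gave differences of 14 to 19 rows for En1 and 9.5 to 18 rows for En2, and of 20.4 to 26.3 and 23.4 to 26.2 percentile points for their promoters. It gave DA-only counts of 10 to 13 for En1 and 6 to 12 for En2. The highest for both was reached without DA replicate 1, whose list is the shortest of the DA libraries, and for En1 also without 5-HT replicate 1. The DA-only share of all rows was not counted with a library left out. With the replicate number as a block over replicates 1 and 2, the differences were 14 and 15 rows and 22.9 and 26.2 percentile points (exact permutation test, smallest possible p = 0.5). The libraries share only a number, since they are separate sorts of different lines, and the deviations of same-numbered libraries had correlations of -0.0125 and -0.0146 over all rows. Depth is unknown, so a row listed at 0 in a library is not shown to be closed there.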
